A study of Mus musculus with 8 samples.

Results

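Hearts of mice that carried 1 deleted copy of a conserved enhancer of Actn2 were compared with hearts of wild-type mice at postnatal day 40, across all genes that passed a filter on low counts. The comparison used 5 of the 8 libraries of the study, 3 heterozygous and 2 wild type, chosen by the genotype that the labels give. The other 3 libraries, from mice homozygous for the same deletion, entered the fit to estimate the spread between libraries and served as the second point of reference. All hearts were described as adult hearts taken on the same day of age from 1 mouse litter. The allele was made with CRISPR/Cas9 in the mouse, so that every cell type of the heart carried it. The sources used here do not give the deleted interval, the strain, the number of founders or the sex of the mice. RNA was extracted with Trizol from heart tissue, which holds cardiomyocytes, fibroblasts, vessel cells and blood cells together. In such bulk tissue, fewer cells of a type and less RNA per cell cannot be told apart. The labels do not say that each library came from a separate animal, and the p-values then measure only the spread between these samples.

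Alpha-actinin 2, the product of Actn2, cross-links the ends of actin thin filaments at the Z-disc, the boundary of the sarcomere, where it also holds titin and many signalling proteins. An enhancer is a stretch of DNA that raises transcription of a gene from a distance, and loss of 1 copy leaves the other allele with its enhancer intact. Around the sarcomere, cardiomyocytes release calcium from the sarcoplasmic reticulum to contract and pump it back to relax, and they make most of their ATP in mitochondria from fatty acids and glucose. The gene groups below follow these roles.

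Actn2 was lower in heterozygous hearts. The gene (ENSMUSG00000052374.16, chromosome 13, 12269426 to 12340760, minus strand) and all positions below are given on mm10. Its level was 2187 and 2703 CPM (counts scaled to a library of 1000000) in wild type 1 and 2 and 1693, 1546 and 1638 CPM in heterozygous 1 to 3. Every heterozygous heart was below both wild-type hearts, and wild type 2 was the higher of that pair. Means were 2445 ± 365 CPM in wild type (SD, n = 2) and 1626 ± 74.4 CPM in heterozygous hearts (SD, n = 3), a ratio of 0.665. In the quasi-likelihood F test of edgeR, adjusted over all genes by Benjamini-Hochberg, the log2 fold change was -0.59 (adjusted p = 0.0193, SE 0.16). The call was lost without wild type 2, at -0.40 (adjusted p = 0.125), without heterozygous 2 (adjusted p = 0.0726) and without heterozygous 3 (adjusted p = 0.0592), and stood without wild type 1, at -0.73 (adjusted p = 0.00449). A fit of only the 5 libraries compared gave -0.59 (adjusted p = 0.0541), and a block for the replicate number gave -0.59 (adjusted p = 0.0546). After the correction for gene properties described below it was -0.33 (adjusted p = 0.143). In homozygous hearts the level was 1839 ± 256 CPM (SD, n = 3), and the difference from heterozygous hearts was 0.18 in log2 units (SE 0.14, adjusted p = 0.9996). Homozygous hearts were not called against wild type in the same fit (log2 fold change -0.41, SE 0.16, adjusted p = 0.0771). The 250 bases upstream of the Actn2 start in RefSeq (GRCm38.p6, chr13:12340733-12340982, minus strand) are shown. They were chosen because the deleted element is described as an enhancer of this gene. Capitals mark each match to CACGTG, a form of the E-box.
Actn2: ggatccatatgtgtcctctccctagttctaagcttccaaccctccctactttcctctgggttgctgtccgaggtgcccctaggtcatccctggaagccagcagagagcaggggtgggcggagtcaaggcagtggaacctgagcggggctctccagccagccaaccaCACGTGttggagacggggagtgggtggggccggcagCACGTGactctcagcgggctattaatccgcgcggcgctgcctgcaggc
Matches lay 84 to 79 and 48 to 43 bases before the start. Searched on both strands over the same 250 bases, this palindromic sequence is in 6.02% of 32851 promoters in the table. TNAAGGTCA (an ERR element, 1.14% of promoters), the GATA motif AGATAA (9.99%), the TEAD motif CATTCC (12.6%) and the TATA box TATAAA (12.4%) were also searched and gave no match in this window. A match of letters is not evidence of binding.

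The 5 libraries held 22230090 to 31247412 counts in genes. Of 24516 genes in the table, 15075 (61.5%) passed the filter and were tested. Reads of Xist and of Y-linked genes marked heterozygous 1 and wild type 1 as male and the other 3 as female. Wild type 2 stood apart from the rest: in a principal component analysis of the 1000 genes of highest variance, component 1 (35.9% of the variance) placed it at 61.4, wild type 1 at 10.8 and the 6 deletion libraries between -14.2 and -7.87. Across genes, the wild-type libraries correlated with each other at r = 0.952, pairs of heterozygous libraries at 0.969 to 0.981, wild type 1 with the heterozygous libraries at 0.957 to 0.960 while for wild type 2 this range was 0.927 to 0.930. These correlations run over genes, which are no independent replicates. Since the spread of each gene rests mostly on the deletion libraries, adjusted p-values against wild type can be too small. Ventricular cardiomyocyte markers summed to 97087 to 114967 CPM in wild type and 81869 to 88989 CPM in heterozygous hearts. The 6 haemoglobin genes of the erythroid list are listed at 0 in all 5 libraries.

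A gene is called here when its adjusted p is below 0.05. Heterozygous hearts had 4219 called genes of 15075 tested (28.0%), of which 2295 (15.2%) were higher and 1924 (12.8%) lower than in wild type. With upper-quartile scaling the split was 1927 higher and 2478 lower. Of the called genes, 768 (5.09% of those tested) were at least 2-fold higher and 460 (3.05%) at least 2-fold lower. The median log2 fold change over all tested genes was -0.03. All 3 heterozygous libraries lay above both wild-type libraries in 3878 genes (25.7%) and below both in 3852 (25.6%), counted without regard to the test. A fit with wild type 2 left out, in which wild type 1 is assumed to vary like the deletion groups, called 1645 genes (10.9%) higher and 729 (4.84%) lower, 15.7% in all. With wild type 1 left out the counts were 3004 (19.9%) and 2637 (17.5%), 37.4% in all. The plot of heterozygous means against each wild-type library shows both views gene by gene.

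**Figure D1:**
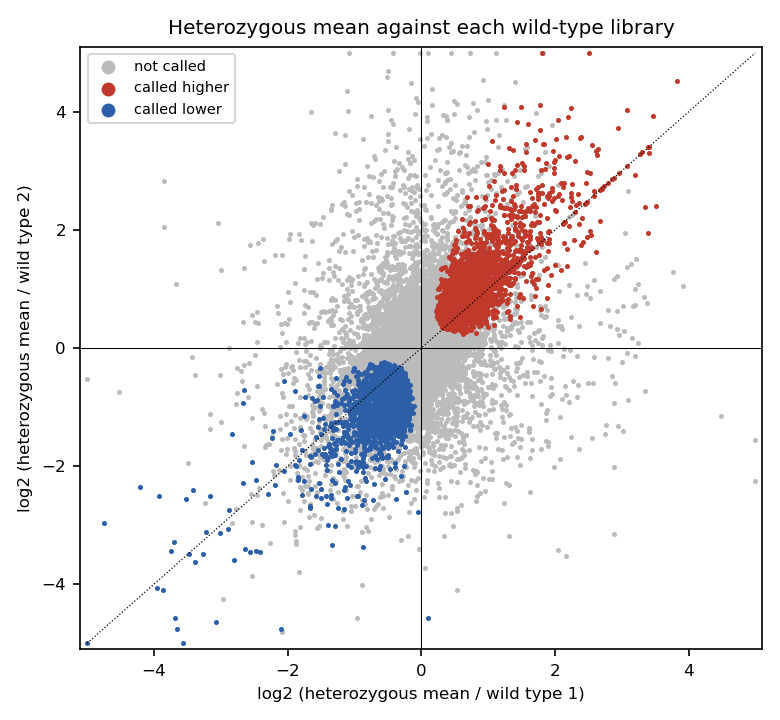
Each point is 1 of 15075 tested genes: the log2 ratio of the heterozygous mean (n = 3) to wild type 1 (x axis) and to wild type 2 (y axis), from log2 CPM with a prior count of 2, red where called higher and blue where called lower. Ratios beyond 5 in size are drawn at the edge, and the dotted line marks equal ratios. Called genes lie on the same side of both wild-type libraries with few exceptions, and grey points spread more widely along both axes than the red and blue clouds near the centre.

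Fold changes followed simple properties of the genes. With genes in 5 bins of equal number by transcript length, the median log2 fold change went from -0.40 in the shortest to 0.36 in the longest. By length of the 3' untranslated region it went from -0.33 to 0.38, and by GC content from 0.45 in the lowest bin to -0.42 in the highest. The direction was the same against wild type 1 and against wild type 2 taken alone. The part of such a trend in any single gene was not tested, so a corrected fit is given beside the results: each library's trend with the 3 properties was removed, for the 13874 genes that have all 3 in the annotation. After this gene property correction 1978 genes (14.3%) were called, 1295 (9.33%) higher and 683 (4.92%) lower. Of these, 1511 had been called in the same direction without it and 3 in the opposite one. A strict group of genes was called in the same direction in 5 fits: all libraries, without wild type 1, without wild type 2, corrected, and corrected without wild type 2. The last of these called 551 genes higher (3.97%) and 201 lower (1.45%), 5.42% in all. The strict group held 459 genes higher (3.04% of those tested) and 79 lower (0.524%), and is called here the 5-fit group. Only the 13874 genes with all 3 properties could enter it, so these shares of all tested genes are slightly low for them.

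**Figure D2:**
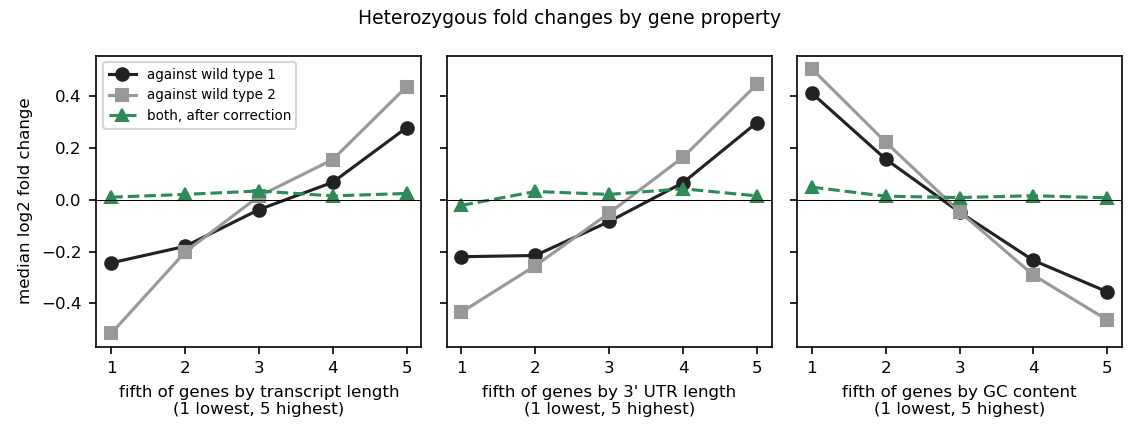
Median log2 fold change (y axis) in 5 bins of genes (x axis, about 2775 genes each) by GC content and by transcript and 3' UTR length, for the heterozygous mean against wild type 1 (black circles), against wild type 2 (grey squares), and for the fit with both after the gene property correction (green triangles). Both uncorrected lines rise with length and fall with GC content, more steeply against wild type 2, and the corrected medians stay between -0.02 and 0.05.

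Proteins of the Z-disc and of the costamere, which ties it to the cell membrane, went both ways. Of that list 11 of 49 measured members were called higher and 10 lower, with a median log2 fold change of 0.15. The shares among all genes tested, 15.2% and 12.8%, are the background for the uncorrected counts from all libraries, in this and every list below. For corrected counts the background is 9.33% higher and 4.92% lower. Counts with 1 library left out have other backgrounds. After the correction the counts were 12 higher and 1 lower of 49 (median 0.08), and 9 to 14 higher and 5 to 13 lower with 1 library left out, where the lower count was 5 without wild type 2. Sgcd, delta-sarcoglycan of the dystrophin complex, rose, with 11.5 and 9.08 CPM in wild type 1 and 2 and 67.02, 62.4 and 61.7 CPM in heterozygous 1 to 3. No heterozygous heart came near the wild-type range, and the log2 fold change was 2.63 (adjusted p = 1.35e-05, SE 0.14), or 2.70 corrected. Dmd, which encodes dystrophin itself, had 73.8 and 57.6 CPM in wild type 1 and 2 and 223, 240.2 and 222 CPM in heterozygous 1 to 3 and a log2 fold change of 1.80 (adjusted p = 7.17e-05, SE 0.14). Synpo2, an actin-binding protein of the Z-disc, rose from 45.9 and 44.3 to 160.0, 124 and 140.4 CPM (log2 fold change 1.65, SE 0.13, adjusted p = 7.2e-05). These 3 genes are in the 5-fit group. Utrn, the dystrophin relative utrophin, rose by 0.93 in log2 units (adjusted p = 0.0004902), which was 0.38 (adjusted p = 0.0625) after the correction. Its levels were 93.7 and 95.6 CPM in wild type 1 and 2 and 187, 184 and 169 CPM in heterozygous 1 to 3.

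Thin filament genes split evenly. Here 7 of 28 measured members were called higher and 7 lower, with a median log2 fold change of -0.11, and 5 higher and 2 lower of 28 (median 0.00) after the correction. There were 6 to 7 higher and 3 to 7 lower with 1 library left out, where the lower count was 3 without heterozygous 3 and 4 without wild type 2. Nebl encodes nebulette, a short cardiac relative of nebulin that joins thin filaments to the Z-disc. It had 33 and 19.1 CPM in wild type 1 and 2 and 243, 283 and 239 CPM in heterozygous 1 to 3, 9.79-fold of wild type (log2 fold change 3.29, SE 0.24, adjusted p = 4.98e-05). Wild type 1 was the higher wild-type library for this gene and still far below every heterozygous one. Capza2, a subunit of the CapZ cap on the barbed end of the filament, rose from 135 and 107 to 248, 226 and 253 CPM (log2 fold change 1.0, SE 0.14, adjusted p = 0.000898). Both are in the 5-fit group. On the lower side, Tpm2 (beta-tropomyosin) had 33.9 and 80.02 CPM in wild type 1 and 2 and 18.9, 18.9 and 17.8 CPM in heterozygous 1 to 3 and a log2 fold change of -1.62 (adjusted p = 0.00291, SE 0.28), which was -0.84 without wild type 2. The abundant Tpm1 (alpha-tropomyosin) fell from 11373 and 9421 to 7989, 7983 and 7493 CPM, a log2 fold change of -0.41 (adjusted p = 0.04701, SE 0.14) and -0.22 (adjusted p = 0.255) after the correction. That call was lost without any 1 of the libraries other than wild type 2, at an adjusted p of up to 0.141. Tnni3, cardiac troponin I, had 6069 and 10231 CPM in wild type and 5138, 5227 and 4602 CPM in heterozygous hearts. Its log2 fold change of -0.71 (adjusted p = 0.02298, SE 0.20) was -0.25 (adjusted p = 0.262) without wild type 2, and the call was also lost without any 1 heterozygous library (adjusted p = 0.0521, 0.0598 and 0.0831).

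Thick filament genes were called lower more often than higher. Here 3 of 23 measured members were called higher and 9 lower, with a median log2 fold change of -0.41, and 2 higher and 5 lower of 22 (median -0.26) after the correction. There were 2 to 4 higher and 5 to 12 lower with 1 library left out, where the lower count was 5 without wild type 2. Mybpc2, the fast-type myosin-binding protein C, fell from 61.3 and 65.3 to 32.9, 24.4 and 25.6 CPM (log2 fold change -1.20, SE 0.18, adjusted p = 0.00116). Myh7b, a slow-type myosin heavy chain, fell from 629.7 and 509 to 207, 306 and 282 CPM (log2 fold change -1.10, SE 0.18, adjusted p = 0.0021). Those genes, Myl7 and 1 further member are in the 5-fit group. The ventricular light chains Myl2 and Myl3 were called lower at -0.91 and -0.60 in log2 units, but their corrected values were -0.30 (adjusted p = 0.3005) and 0.01 (adjusted p = 0.967). For Myl2 the wild-type libraries themselves differed, at 9128 and 19551 CPM against 7904, 8271 and 6702 CPM in heterozygous hearts. Without wild type 2 the values were -0.23 (adjusted p = 0.358) and -0.35 (adjusted p = 0.1701), and neither call stood without heterozygous 2 or heterozygous 3 (adjusted p between 0.0569 and 0.0876). Myl2 also lost its call without heterozygous 1 (adjusted p = 0.0569). Myl3 had 7216 and 9558 CPM in wild type 1 and 2 and 6064, 5122 and 5467 CPM in heterozygous 1 to 3. The main cardiac myosin heavy chain Myh6 had 32397 and 31404 CPM in wild type 1 and 2 and 24884, 24756 and 23608 CPM in heterozygous 1 to 3 and was not called (log2 fold change -0.39, SE 0.15, adjusted p = 0.0866). Myh6 was called lower by DESeq2, at -0.38 (adjusted p = 0.0304), and by edgeR with upper-quartile scaling, at -0.47 (adjusted p = 0.047). Myh7, the heavy chain of fetal and stressed hearts, was at -0.41 (adjusted p = 0.135), and passed without wild type 1, at -0.62 (adjusted p = 0.0257).

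Titin spans from Z-disc to M-band as the molecular spring of the sarcomere. Ttn read 5197 and 6056 CPM in wild type 1 and 2 and 9154, 9601 and 9878 CPM in heterozygous 1 to 3, a log2 fold change of 0.76 (adjusted p = 0.00372, SE 0.14). With the correction its sign turned, to -0.38 (adjusted p = 0.0915), and with the correction and without wild type 1 it was called lower, at -0.57 (adjusted p = 0.00928). Of the titin and M-band list 4 of 13 measured members were called higher and 3 lower, with a median log2 fold change of -0.02. There were 2 higher and 0 lower of 13 after the correction, and 2 to 4 higher and 1 to 3 lower with 1 library left out, where the higher count was 2 without heterozygous 1 or 2 or homozygous 1 or 3 or wild type 2 and the lower count was 1 without wild type 2. Its 5-fit member was Trim55, the titin-bound ubiquitin ligase MuRF2, with 39.9 and 11.9 CPM in wild type 1 and 2 and 77.8, 88 and 88.9 CPM in heterozygous 1 to 3 (log2 fold change 1.71, SE 0.42, adjusted p = 0.0183). The wild-type libraries differed by more than 3-fold for Trim55, and both lay below all heterozygous ones. Its value was 2.84 without wild type 1 and 1.12 without wild type 2.

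Genes for the cell-to-cell junctions of the intercalated disc were called higher more often than lower: 9 of 21 measured members were called higher and 1 lower, with a median log2 fold change of 0.42. The corrected counts were 5 higher and 0 lower of 20 (median 0.19), with 6 to 10 higher and 0 to 2 lower with 1 library left out. Ctnna3, alpha-T-catenin, had 15.7 and 18.1 CPM in wild type 1 and 2 and 38.2, 50.9 and 54.7 CPM in heterozygous 1 to 3 (log2 fold change 1.51, SE 0.17, adjusted p = 0.0003295). Cdh2, the N-cadherin of the junction, rose from 175 and 170.3 to 289, 292 and 296 CPM (log2 fold change 0.76, SE 0.12, adjusted p = 0.00147). Dsp, the desmosomal linker desmoplakin, rose from 915 and 576 to 1565, 1581 and 1508 CPM (log2 fold change 1.06, SE 0.19, adjusted p = 0.00331). All 3 are in the 5-fit group, and in each the heterozygous libraries were above both wild-type ones.

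Genes of both sides of the calcium cycle were called higher more often than lower. In the calcium release list 7 of 22 measured members were called higher and 1 lower, with a median log2 fold change of 0.16, and after the correction 5 higher and 1 lower of 22 (median 0.09), with 6 to 9 higher and 0 to 2 lower with 1 library left out. Ryr2 (ENSMUSG00000021313.16, chromosome 13, 11553102 to 12106945, minus strand), the release channel of the sarcoplasmic reticulum, lies near Actn2 on the same chromosome and had 1275 and 992 CPM in wild type 1 and 2 and 2705, 2578 and 2527 CPM in heterozygous 1 to 3. Its log2 fold change was 1.20 (adjusted p = 0.000896, SE 0.17) and 0.67 (adjusted p = 0.0113) after the correction. With the correction and without wild type 2 the Ryr2 value was 0.59, and Ryr2 is not in the 5-fit group. Casq2, the calcium buffer calsequestrin, rose from 705 and 466 to 1413, 1233 and 1156 CPM (log2 fold change 1.11, SE 0.19, adjusted p = 0.00246). Trdn, triadin, which links the channel to that buffer, rose by 0.81 (adjusted p = 0.00703), but had 0.11 (adjusted p = 0.6899) corrected. Its levels were 266 and 322 CPM in wild type 1 and 2 and 543, 432 and 568 CPM in heterozygous 1 to 3.

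In the calcium removal list 5 of 15 measured members were called higher and 1 lower, with a median log2 fold change of 0.26, and 6 higher and 1 lower of 15 (median 0.26) after the correction. Atp2a2 encodes SERCA2, the pump that returns calcium to the store, and had 9817 and 5779 CPM in wild type 1 and 2 and 14273, 16162 and 16906 CPM in heterozygous 1 to 3. It rose by 1.02 in log2 units (SE 0.2201, adjusted p = 0.00741), with 0.75 (adjusted p = 0.021) after the correction. The Atp2a2 value was 0.71 without wild type 2, and 0.45 with the correction and without wild type 2. Pln, its inhibitor phospholamban, rose from 4565 and 4415 to 8250.4, 8098 and 8999 CPM (log2 fold change 0.91, SE 0.14, adjusted p = 0.00144). After the correction the Pln value was 0.51 (adjusted p = 0.0161). Neither Atp2a2 nor Pln is in the 5-fit group. Slc8a1, the sodium-calcium exchanger of the cell membrane, rose from 209 and 180.2 to 572, 743 and 645 CPM (log2 fold change 1.75, SE 0.16, adjusted p = 0.000137) and kept 1.67 (adjusted p = 0.000195) after the correction. Sln, sarcolipin, the other small inhibitor of the pump, was the 1 member called lower and is described with the atrial genes.

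**Figure D3:**
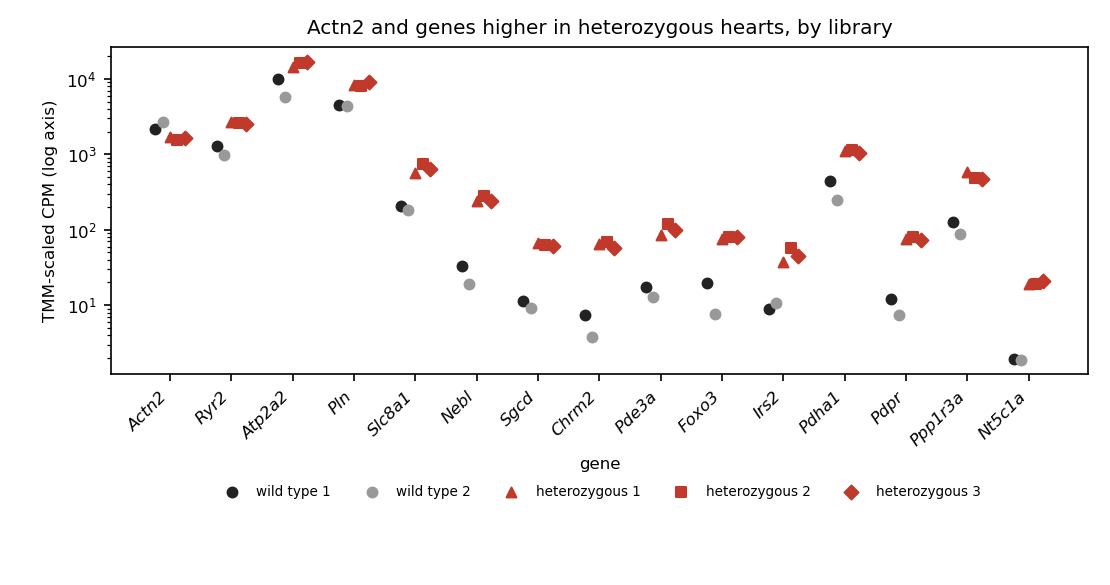
TMM-scaled CPM (y axis, log scale) of Actn2 and 14 genes that were called higher, by library: wild type 1 and 2 as black and grey circles, heterozygous 1 to 3 as red symbols, with no means or error bars since every library is shown. Actn2 is the 1 gene in which the red points lie below both circles, and in the other 14 all red points lie above both.

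Ion channels set the heartbeat's electrical signal. Of the potassium channels 5 of 22 measured members were called higher and 3 lower, with a median log2 fold change of 0.23, and of the sodium, calcium and pacemaker channels with the sodium pump 3 of 22 measured members were called higher and 3 lower, with a median log2 fold change of 0.20. The potassium channels had 5 higher and 1 lower of 22 after the correction, and 2 to 8 higher and 0 to 2 lower with 1 library left out, where the higher count was 2 without wild type 2 and 8 without wild type 1 and the lower count was 0 without heterozygous 1 or 3 and 1 without heterozygous 2 or wild type 2. The second list had 3 higher and 1 lower of 22 after the correction, and 1 to 4 higher and 2 to 4 lower with 1 library left out, where the higher count was 1 without heterozygous 3 or any 1 homozygous library. Kcnj5, a subunit of the acetylcholine-gated potassium channel, rose from 46.4 and 35.2 to 80.7, 85.1 and 93.9 CPM (log2 fold change 1.09, SE 0.15, adjusted p = 0.000763) and is in the 5-fit group. Kcnj3, its partner subunit, had 40.2 and 34.2 CPM in wild type 1 and 2 and 56.3, 98.9 and 82.6 CPM in heterozygous 1 to 3 (log2 fold change 1.09, SE 0.23, adjusted p = 0.00632), with 0.63 (adjusted p = 0.0683) after the correction and 1.01 (adjusted p = 0.0703) without wild type 2. Kcnj2, the inward rectifier that sets the resting potential, read 21.7 and 9.46 CPM in wild type and 59.5, 46.4 and 44.6 CPM in heterozygous hearts. Its call (log2 fold change 1.69, SE 0.42, adjusted p = 0.0186) was lost without wild type 2, at 1.23 (adjusted p = 0.132), and after the correction, at 1.12 (adjusted p = 0.101). With the correction and without wild type 1 it was 1.71 (adjusted p = 0.0577). Cacna1c, the pore of the L-type calcium channel, was at -0.10 (adjusted p = 0.659) and Gja1, connexin 43, at 0.21 (adjusted p = 0.434). Heterozygous and wild-type libraries overlapped for both. Cacna1c was -0.45 (adjusted p = 0.0866) after the correction, and passed with the correction and a term for sex, at -0.48 (adjusted p = 0.0363), and with the correction and without wild type 1, at -0.70 (adjusted p = 0.00523).

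Receptors and second messengers of the autonomic nerves held some of the largest differences. In this list 9 of 34 measured members were called higher and 2 lower, with a median log2 fold change of 0.31, and 8 higher and 1 lower of 33 (median 0.33) after the correction. Chrm2 encodes the M2 muscarinic receptor, through which the vagus nerve slows the heart. It had 7.48 and 3.85 CPM in wild type 1 and 2 and 65.2, 69.4 and 56.6 CPM in heterozygous 1 to 3, 11.3-fold of wild type (log2 fold change 3.50, SE 0.27, adjusted p = 7.17e-05). Pde3a, a phosphodiesterase that breaks down cyclic AMP, had 17.4 and 12.8 CPM in wild type 1 and 2 and 83.99, 117 and 101 CPM in heterozygous 1 to 3 (log2 fold change 2.74, SE 0.20, adjusted p = 4.98e-05). Prkar2a, a regulatory subunit of protein kinase A, rose from 52.8 and 30.4 to 144, 142 and 143 CPM (log2 fold change 1.78, SE 0.20, adjusted p = 0.000336). Adcy9, an adenylyl cyclase, rose from 31.5 and 20.7 to 60.4, 55.4 and 54.1 CPM (log2 fold change 1.12, SE 0.17, adjusted p = 0.00136). Each of these 4 is in the 5-fit group, as is 1 more member of the list, and in none did heterozygous and wild-type libraries overlap.

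Transcriptional regulators of cardiac energy metabolism were either called higher or not called. Of the list of estrogen-related receptors, PPARs, PGC-1 and their cofactors, 12 of 26 measured members were called higher and 0 lower, with a median log2 fold change of 0.42. The list had 11 higher and 0 lower (median 0.51) without wild type 2 and 10 higher and 0 lower of 26 (median 0.36) corrected, and 6 members are in the 5-fit group. Nrip1, the corepressor RIP140, had 4.67 and 5.16 CPM in wild type 1 and 2 and 24.7, 22.1 and 19.1 CPM in heterozygous 1 to 3 (log2 fold change 2.16, SE 0.19, adjusted p = 9.82e-05). Esrrg, the receptor ERR gamma, rose from 26.9 and 26.6 to 61.1, 77.6 and 72.6 CPM (log2 fold change 1.40, SE 0.14, adjusted p = 0.0001996). Esrrb, ERR beta, rose from 20.3 and 21.1 to 36.9, 41.1 and 42.4 CPM (log2 fold change 0.96, SE 0.14, adjusted p = 0.00105), and Ncoa2, a nuclear receptor coactivator, rose from 39.2 and 34.1 to 68.7, 89.7 and 91.4 CPM (log2 fold change 1.19, SE 0.15, adjusted p = 0.000552). The list mixes activators and repressors: Nrip1 and Ncor1 are known as corepressors. Ppargc1a, PGC-1 alpha, varied among the heterozygous hearts, with 128 and 220.0 CPM in wild type 1 and 2 and 155, 378 and 541 CPM in heterozygous 1 to 3, and was not called (log2 fold change 1.04, SE 0.55, adjusted p = 0.204), though it passed without heterozygous 1, at 1.43 (adjusted p = 0.02999).

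Cardiac transcription factors showed 10 of 34 measured members called higher and 1 lower, and 10 higher and 1 lower of 34 (median 0.25) after the correction. There were 7 to 11 higher and 0 to 5 lower with 1 library left out, where the lower count was 5 without wild type 1. Klf9 rose from 125 and 96.8 to 267, 276 and 276 CPM (log2 fold change 1.30, SE 0.14, adjusted p = 0.0003103). Prox1, a homeobox factor that also marks lymphatic endothelium, rose from 9.22 and 10.3 to 23.8, 36.2 and 31.6 CPM (log2 fold change 1.64, SE 0.19, adjusted p = 0.000421). Myocd, myocardin, the coactivator of serum response factor, rose from 25.8 and 33.6 to 70.2, 75.3 and 102 CPM (log2 fold change 1.48, SE 0.19, adjusted p = 0.000633). Tead1, the DNA-binding partner of YAP, rose from 183 and 124 to 436, 366 and 407 CPM (log2 fold change 1.39, adjusted p = 0.00069). The adult maturation list had 13 higher and 0 lower of 45 (median 0.24) after the correction, against 13 higher and 9 lower of 45 before it, with 10 to 14 higher and 1 to 13 lower with 1 library left out, where the lower count was 1 without heterozygous 3 or wild type 2 and 2 without heterozygous 2. Of fetal and stress genes 2 of 32 measured members were called higher and 10 lower, with a median log2 fold change of -0.55, with 2 higher and 4 lower of 28 after the correction, and 0 to 2 higher and 5 to 10 lower with 1 library left out, where the higher count was 0 without wild type 2 and the lower count was 5 without wild type 2. The members of this list called lower included Sln, Myl7 and Myl4, which are described with the atrial genes below. Sln and Myl7 were its only lower members in the 5-fit group. The stress hormone genes Nppa and Nppb were not called, at -0.54 (adjusted p = 0.623, SE 0.73) and -0.52 (adjusted p = 0.464, SE 0.48). Nppa had 283 and 514 CPM in wild type 1 and 2 and 415, 312 and 93.1 CPM in heterozygous 1 to 3, a spread as wide within the heterozygous hearts as between the groups. Acta1, skeletal alpha-actin, likewise had 859.7 and 938 CPM in wild type 1 and 2 and 1083, 198 and 109 CPM in heterozygous 1 to 3 and was not called (log2 fold change -0.96, SE 0.90, adjusted p = 0.481). It passed without heterozygous 1, the library with the high value, at -2.52 (adjusted p = 0.000809).

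Insulin and FoxO signalling genes were often higher: 13 of 29 measured members were called higher and 3 lower, with a median log2 fold change of 0.42. Corrected counts were 8 higher and 2 lower of 29 (median 0.11). There were 7 to 15 higher and 2 to 3 lower with 1 library left out, where the higher count was 7 without heterozygous 2 and 8 without homozygous 1. Irs2, the insulin receptor substrate 2, had 8.83 and 10.6 CPM in wild type 1 and 2 and 37.2, 56.8 and 45.1 CPM in heterozygous 1 to 3 (log2 fold change 2.25, SE 0.22, adjusted p = 0.000198). Every heterozygous heart was above both wild-type hearts by more than 3-fold. Foxo3, the forkhead factor that insulin signalling holds out of the nucleus, had 19.9 and 7.73 CPM in wild type 1 and 2 and 75.2, 79.9 and 79.9 CPM in heterozygous 1 to 3 (log2 fold change 2.51, SE 0.35, adjusted p = 0.001404), with 3.34 against wild type 2 alone and 2.01 against wild type 1 alone. Pik3r1, the regulatory subunit of PI3 kinase, rose from 199 and 121 to 639, 472 and 386 CPM (log2 fold change 1.64, SE 0.26, adjusted p = 0.00172). Igfbp3, a binding protein that carries insulin-like growth factors, went the other way, with 72.9 and 69.4 CPM in wild type 1 and 2 and 23.6, 26.3 and 23.3 CPM in heterozygous 1 to 3 (log2 fold change -1.54, SE 0.15, adjusted p = 0.000179). Irs2, Foxo3 and Igfbp3 are in the 5-fit group.

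Entry of pyruvate into mitochondria's oxidation and glycogen handling gave more calls higher than lower. For the pyruvate dehydrogenase and TCA cycle list 13 of 38 measured members were called higher and 4 lower, with a median log2 fold change of 0.31. It had 9 higher and 2 lower of 38 (median 0.33) after the correction, and 6 to 18 higher and 2 to 5 lower with 1 library left out, where the higher count was 6 without wild type 2, 7 without heterozygous 3 and 8 without heterozygous 1 or 2 and the lower count was 2 without any 1 heterozygous library or homozygous 1 or 3 or wild type 2. The 4 members of this list in the 5-fit group all belong to the pyruvate dehydrogenase complex or its control. Pdha1, the E1 alpha subunit, had 447 and 249.8 CPM in wild type 1 and 2 and 1096, 1124 and 1057 CPM in heterozygous 1 to 3 (log2 fold change 1.65, SE 0.22, adjusted p = 0.000725). Dld, the shared E3 subunit, rose from 336 and 239 to 802, 701 and 726 CPM (log2 fold change 1.37, SE 0.17, adjusted p = 0.000483). Pdk1, a kinase that switches the complex off, rose from 140.4 and 155 to 315, 308 and 318 CPM (log2 fold change 1.09, SE 0.12, adjusted p = 0.000337). Pdpr, the regulatory subunit of the phosphatase that switches it on, had 12.2 and 7.38 CPM in wild type 1 and 2 and 74.3, 78.99 and 72.2 CPM in heterozygous 1 to 3, 7.696-fold of wild type (log2 fold change 2.94, SE 0.20, adjusted p = 4.39e-05). Pdk4, the kinase isoform of fasting, had 1805 and 509 CPM in wild type 1 and 2 and 3527, 951 and 1877 CPM in heterozygous 1 to 3 and was not called (log2 fold change 0.87, SE 0.71, adjusted p = 0.405). Pdk4 passed with a term for sex, at 1.20 (adjusted p = 0.0185), and with a block for the replicate number, at 0.91 (adjusted p = 0.0181).

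On the glycogen and AMP kinase list 12 of 34 measured members were called higher and 2 lower, with a median log2 fold change of 0.26, and 10 higher and 0 lower of 34 (median 0.27) after the correction. There were 10 to 14 higher and 1 to 4 lower with 1 library left out, where the lower count was 4 without wild type 1. Ppp1r3a, which targets protein phosphatase 1 to glycogen and the sarcoplasmic reticulum, had 128 and 87.7 CPM in wild type 1 and 2 and 575, 484 and 473 CPM in heterozygous 1 to 3 (log2 fold change 2.24, SE 0.19, adjusted p = 8.27e-05). Nt5c1a, a cytosolic nucleotidase that splits AMP, had 1.93 and 1.91 CPM in wild type 1 and 2 and 19.1, 18.9 and 20.8 CPM in heterozygous 1 to 3 (log2 fold change 3.35, SE 0.19, adjusted p = 1.42e-05). Prkaa2, the catalytic alpha 2 subunit of AMP kinase, rose from 81.7 and 62.6 to 217, 258 and 242 CPM (log2 fold change 1.73, SE 0.15, adjusted p = 0.000109), and Epm2a, the glycogen phosphatase laforin, rose from 6.52 and 3.64 to 20.1, 22.1 and 23.9 CPM (log2 fold change 2.12, SE 0.25, adjusted p = 0.000479). All 4 are in the 5-fit group, with no overlap between the genotypes.

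Fatty acid and glycolytic genes did not move one way. For fatty acid uptake and oxidation 6 of 54 measured members were called higher and 10 lower, with a median log2 fold change of -0.12, and 4 higher and 1 lower of 54 (median 0.10) after the correction. There were 4 to 14 higher and 3 to 14 lower with 1 library left out, where the higher count was 14 without wild type 1 and the lower count was 3 without wild type 2, 4 without heterozygous 2 and 5 without heterozygous 3. Cd36, the fatty acid transporter, had 1651 and 1608 CPM in wild type 1 and 2 and 4031, 2692 and 2687 CPM in heterozygous 1 to 3 (log2 fold change 0.94, SE 0.20, adjusted p = 0.00601), with 0.43 (adjusted p = 0.117) corrected. Echdc1, a proofreading decarboxylase of fatty acid metabolism, rose from 2.24 and 1.52 to 11.8, 7.795 and 14.1 CPM (log2 fold change 2.57, SE 0.31, adjusted p = 0.000483) and is in the 5-fit group. In glycolysis 2 of 30 measured members were called higher and 6 lower, with a median log2 fold change of -0.14, and 3 higher and 3 lower of 30 after the correction, and 2 to 4 higher and 4 to 5 lower with 1 library left out, where the higher count was 4 without heterozygous 1. Gapdh, often used as a reference gene, had 535 and 674 CPM in wild type 1 and 2 and 237, 235 and 261 CPM in heterozygous 1 to 3, 0.404-fold of wild type (log2 fold change -1.31, SE 0.14, adjusted p = 0.000294). It is the 1 glycolytic member of the 5-fit group, though its symbol has many processed copies whose reads the counting could split. Aldoa, aldolase A, fell from 3249 and 4384 to 1944, 2056 and 1969 CPM (log2 fold change -0.94, SE 0.16, adjusted p = 0.00255), with -0.40 (adjusted p = 0.0734) after the correction.

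Genes for the respiratory chain and for ribosomes were lower in large numbers, and their counts moved with wild type 2 and with the correction. For respiratory complex I 1 of 36 measured members were called higher and 19 lower, with a median log2 fold change of -0.63. Corrected, it had 1 higher and 5 lower of 36 (median -0.21), and there were 1 higher and 7 to 29 lower with 1 library left out, where the lower count was 7 without wild type 2, 10 without heterozygous 2 or 3 and 29 without wild type 1. Complexes II to V gave 2 higher and 20 lower of 44, and 3 higher and 5 lower of 44 after the correction, and 0 to 4 higher and 4 to 30 lower with 1 library left out, where the higher count was 0 without wild type 2 and 4 without wild type 1 and the lower count was 4 without wild type 2 and 9 without heterozygous 2 or 3. No member of either list is in the 5-fit group. Ndufa8, a complex I subunit, had 479 and 681 CPM in wild type 1 and 2 and 297, 269 and 286 CPM in heterozygous 1 to 3 (log2 fold change -1.03, SE 0.16, adjusted p = 0.001397), and -0.44 (adjusted p = 0.0235) corrected. Cox4i1, of cytochrome c oxidase, had 2387 and 4237 CPM in wild type and 1696, 1472 and 1687 CPM in heterozygous hearts, with -1.03 (adjusted p = 0.00511, SE 0.21) and -0.30 (adjusted p = 0.153) corrected. For cytosolic ribosomal proteins 0 of 78 measured members were called higher and 44 lower, with a median log2 fold change of -0.73. The corrected counts were 0 higher and 9 lower of 75 (median -0.28), with 0 higher and 6 to 68 lower with 1 library left out, where the lower count was 6 without wild type 2, 15 without heterozygous 2, 19 without heterozygous 3 and 68 without wild type 1. The ribosomal list summed to 23307 CPM in wild type 1 and 43535 CPM in wild type 2, against 18245 to 20944 CPM in heterozygous hearts. Rpl28 is an example, with 349 and 665 CPM in wild type 1 and 2 and 190.1, 189 and 237 CPM in heterozygous 1 to 3 (log2 fold change -1.30, SE 0.23, adjusted p = 0.00319) and -0.73 (adjusted p = 0.0123) without wild type 2. Ribosomal protein genes have many near-identical copies in the genome, so their counts are uncertain.

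**Figure D4:**
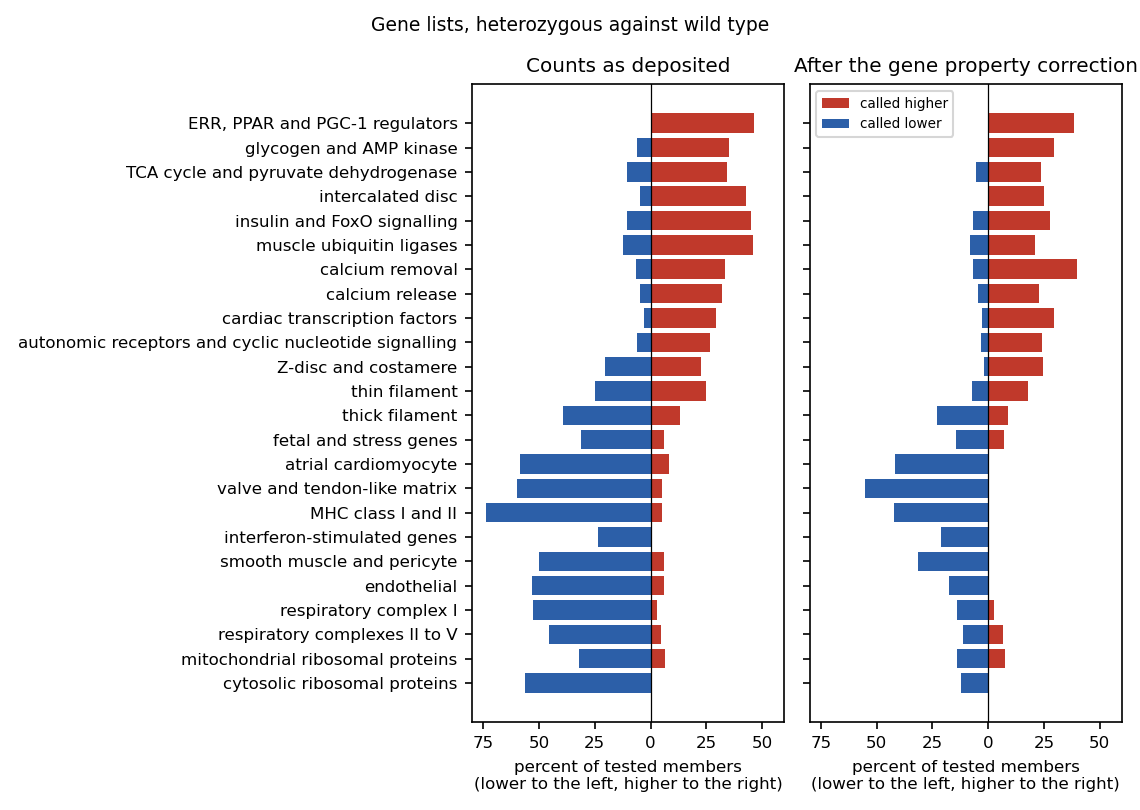
Percent of measured members called higher (red, to the right) and called lower (blue, to the left) in 24 gene lists, in the fit of the counts as deposited and after the gene property correction. For all genes tested the shares were 15.2% higher and 12.8% lower, and 9.33% and 4.92% after the correction. Regulators of energy metabolism, glycogen, calcium and junction genes extend to the right in both panels, and valve-like, atrial and MHC genes to the left in both. The blue bars of respiratory and ribosomal lists shorten in the second panel.

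Antigen presentation genes were called lower more often than higher. In the list for MHC class I and II 1 of 19 measured members were called higher and 14 lower, with a median log2 fold change of -1.51. It had 0 higher and 8 lower of 19 (median -1.02) after the correction and 1 higher and 9 to 15 lower with 1 library left out, where the lower count was 9 without wild type 2. H2-D1, a class I heavy chain, had 100.4 and 208 CPM in wild type 1 and 2 and 37.3, 34.3 and 35.3 CPM in heterozygous 1 to 3 (log2 fold change -2.12, SE 0.25, adjusted p = 0.000541). Wild type 2 was the higher of the wild-type pair, and both lay above every heterozygous heart. The value was -1.47 (adjusted p = 0.000245) without wild type 2, and H2-D1 is 1 of 2 list members in the 5-fit group. Class I heavy chains are near-identical to each other, so the split of reads among them is uncertain. Tap2, a subunit of the peptide transporter, fell from 57.99 and 75.1 to 33.6, 28.2 and 32.1 CPM (log2 fold change -1.09, SE 0.16, adjusted p = 0.00123), and Psmb9, an immunoproteasome subunit, fell from 9.601 and 21.5 to 4.67, 4.38 and 4.34 CPM (log2 fold change -1.80, SE 0.31, adjusted p = 0.00246), with -1.07 without wild type 2. Erap1, the aminopeptidase that trims peptides for class I, was the member called higher (log2 fold change 0.96, SE 0.16, adjusted p = 0.00231), with 0.37 (adjusted p = 0.149) after the correction. Among interferon-stimulated genes 0 of 47 measured members were called higher and 11 lower, with a median log2 fold change of -0.62, with 0 higher and 10 lower of 47 after the correction, and 0 higher and 2 to 25 lower with 1 library left out, where the lower count was 2 without wild type 2, 3 without heterozygous 2, 5 without heterozygous 3, 6 without heterozygous 1 and 25 without wild type 1.

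Markers of atrial cardiomyocytes were called lower more often than higher. Of that list 1 of 12 measured members were called higher and 7 lower, with a median log2 fold change of -0.88. The counts were 0 higher and 5 lower of 12 (median -0.69) after the correction, with 0 to 1 higher and 5 to 6 lower with 1 library left out, and Sln, Myl7 and Dkk3 are in the 5-fit group. Sln (ENSMUSG00000042045.6, chromosome 9, 53850164 to 53854560, plus strand), the atrial calcium pump inhibitor, had 2.93 and 5.27 CPM in wild type and no count in any heterozygous heart. With the limit of 3 counts over the 3 heterozygous libraries, it was at least 114-fold lower, a limit that covers counting error only. Myl7 (ENSMUSG00000020469.8, chromosome 11, 5896637 to 5898782, minus strand), the atrial regulatory light chain, had 6.59 and 14.2 CPM in wild type 1 and 2 and 0.272, 0.532 and 0.684 CPM in heterozygous 1 to 3 (log2 fold change -4.36, SE 0.47, adjusted p = 0.000305). Myl4 (ENSMUSG00000061086.12, chromosome 11, 104550663 to 104595753, plus strand), the atrial essential light chain, had 11.1 and 22.8 CPM in wild type 1 and 2 and 3.13, 1.66 and 1.61 CPM in heterozygous 1 to 3 (log2 fold change -3.01, SE 0.47, adjusted p = 0.00188). Without wild type 2 the light chains were at -3.67 and -2.36. Dkk3, a secreted protein enriched in atria, had 24.1 and 27.1 CPM in wild type 1 and 2 and 2.18, 4.29 and 3.45 CPM in heterozygous 1 to 3 (log2 fold change -2.94, SE 0.33, adjusted p = 0.0003799). In each of the 4 the wild-type hearts were all above the heterozygous hearts, and homozygous hearts had mean levels of 0.0349, 0.274, 1.83 and 3.34 CPM in the same order. Nppa, also an atrial gene, overlapped between the genotypes as given above. Kcnj3 was the member called higher. The summed level of the list was 576 to 884 CPM in wild type and 332 to 619 CPM in heterozygous hearts. Nppa was a large part of that sum in all libraries but heterozygous 3, where other members made up most of it. Bmp10 had too few counts to be tested. Whether the dissected hearts held different amounts of atrium was not tested.

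The promoters of the light chain pair, 250 bases upstream of their RefSeq starts (GRCm38.p6), are shown because these genes fell together. Myl7 lies at chr11:5898783-5899032 on the minus strand and Myl4 at chr11:104550413-104550662 on the plus strand. Capitals mark the 1 match among the 5 motifs searched above, CATTCC in Myl7, 70 to 65 bases before the start.
Myl7: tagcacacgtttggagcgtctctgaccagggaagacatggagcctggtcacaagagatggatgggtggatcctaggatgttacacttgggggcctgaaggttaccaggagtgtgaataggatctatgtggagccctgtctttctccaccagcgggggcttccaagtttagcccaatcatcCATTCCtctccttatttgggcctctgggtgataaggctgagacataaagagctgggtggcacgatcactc
Myl4: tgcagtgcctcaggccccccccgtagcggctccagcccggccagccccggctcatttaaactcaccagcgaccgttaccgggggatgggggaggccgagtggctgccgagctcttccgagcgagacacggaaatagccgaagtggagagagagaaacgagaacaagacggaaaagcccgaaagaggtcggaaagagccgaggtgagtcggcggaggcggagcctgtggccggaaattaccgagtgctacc
Neither window held the ERR, TATA or E-box letters or the GATA form AGATAA, and the Myl4 window held no match at all. Other forms of the GATA site were not searched. Of the 15075 tested genes, 11472 had a promoter in the table, and Sln was not matched.

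Matrix genes of valves and tendon-like tissue were called lower more often than higher, with and without wild type 2. Of this list 1 of 20 measured members were called higher and 12 lower, with a median log2 fold change of -1.61, with 0 to 1 higher and 8 to 13 lower with 1 library left out, and 0 higher and 11 lower of 20 (median -1.34) corrected. Comp, cartilage oligomeric matrix protein, had 17.3 and 20.2 CPM in wild type 1 and 2 and 1.91, 2.41 and 1.13 CPM in heterozygous 1 to 3 (log2 fold change -3.36, SE 0.31, adjusted p = 0.000131). Thbs4, thrombospondin 4, fell from 11.3 and 17.8 to 4.31, 3.79 and 4.62 CPM (log2 fold change -1.78, SE 0.26, adjusted p = 0.00116). Bgn, the small proteoglycan biglycan, fell from 439.7 and 412 to 246, 221 and 227 CPM (log2 fold change -0.88, SE 0.15, adjusted p = 0.00274). These are 3 of the 5 members in the 5-fit group, and wild type 1 and wild type 2 were close to each other in Comp and Bgn. The summed level of the list was 892 to 917 CPM in wild type and 592 to 676 CPM in heterozygous hearts. Bgn was a large part of that sum. How much valve tissue each sample held was not tested.

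**Figure D5:**
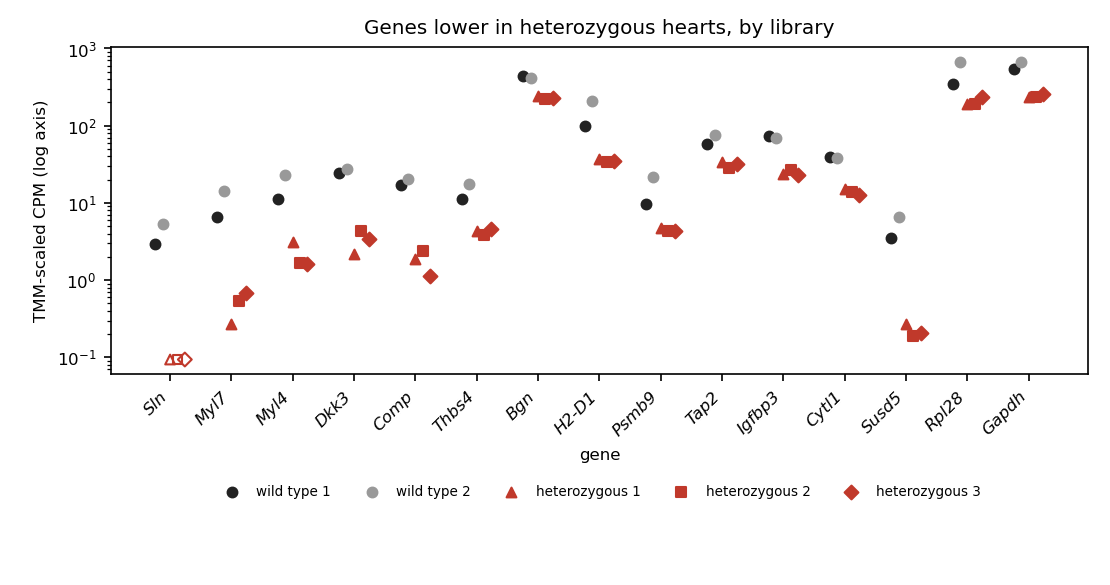
TMM-scaled CPM (y axis, log scale) of 15 genes called lower, by library: wild type 1 and 2 as black and grey circles, heterozygous 1 to 3 as red symbols. Open symbols at the bottom stand for 0 counts, in Sln in all 3 heterozygous libraries. In every gene shown the red symbols lie below both circles, and in the MHC, ribosomal and atrial genes wild type 2 lies above wild type 1.

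Markers of other heart cell types were mostly lower or not called. Endothelial markers gave 1 higher and 9 lower of 17, with 0 higher and 3 lower of 17 (median -0.32) after the correction, and summed to 4028 to 4499 CPM in wild type and 2686 to 3421 CPM in heterozygous hearts. There were 0 to 1 higher and 3 to 11 lower with 1 library left out, where the lower count was 3 without wild type 2 and 5 without heterozygous 3. Eng, the endothelial coreceptor endoglin, fell from 354 and 348 to 196, 211 and 238 CPM (log2 fold change -0.71, SE 0.13, adjusted p = 0.00319). Smooth muscle and pericyte markers gave 1 higher and 8 lower of 16, and Cnn1, calponin 1 of smooth muscle, fell from 4.94 and 14.7 to 0.998, 0.783 and 0.171 CPM (log2 fold change -3.93, SE 0.72, adjusted p = 0.00391), with -2.91 without wild type 2. Here there were 0 higher and 5 lower of 16 after the correction, and 1 to 2 higher and 4 to 8 lower with 1 library left out, where the lower count was 4 without wild type 2 and 5 without heterozygous 3. Of fibroblast markers 0 of 18 measured members were called higher and 4 lower, with a median log2 fold change of -0.26. The list summed to 5168 to 6221 CPM in wild type and 3721 to 4258 CPM in heterozygous hearts. Gsn was a large part of that sum, and the summed rest of the list overlapped between the genotypes. Gsn, gelsolin, fell from 2405 and 2492 to 1438, 1052 and 1216 CPM (log2 fold change -0.99, SE 0.18, adjusted p = 0.00309), Vim, vimentin, fell from 633 and 554 to 242, 338 and 359.5 CPM (log2 fold change -0.92, SE 0.18, adjusted p = 0.00439), with -0.58 (adjusted p = 0.05304) after the correction, and Fbln1, fibulin 1, was the fibroblast marker in the 5-fit group (log2 fold change -0.78, SE 0.16, adjusted p = 0.00609). Cytl1, an endocardial marker, had 39.3 and 38.3 CPM in wild type 1 and 2 and 15.3, 13.99 and 12.6 CPM in heterozygous 1 to 3 (log2 fold change -1.48, SE 0.16, adjusted p = 0.0003103) and is in the 5-fit group. Macrophage markers had 4 higher and 1 lower of 18, with 1 higher and 0 lower of 18 after the correction, and 1 to 5 higher and 1 lower with 1 library left out, where the higher count was 1 without wild type 2 and 2 without heterozygous 1 or 3 or homozygous 1 or 3. Conduction system markers had 2 higher and 0 lower of 12, with 2 higher and 0 lower of 12 after the correction, and 1 to 3 higher and 0 to 2 lower with 1 library left out, where the lower count was 2 without wild type 1. Lymphatic endothelial markers had 1 higher and 0 lower of 6, with 1 higher and 0 lower of 6 after the correction, and 1 to 2 higher and 0 lower with 1 library left out. Platelet markers had 0 higher and 1 lower of 7, with 0 higher and 0 lower of 7 after the correction, and 0 higher and 0 to 1 lower with 1 library left out. Schwann cell and neuron markers had 0 higher and 4 lower of 11, with 0 higher and 3 lower of 11 after the correction, and 0 higher and 0 to 6 lower with 1 library left out, where the lower count was 0 without heterozygous 1 or wild type 2, 1 without heterozygous 2 and 2 without heterozygous 3. Adipocyte markers had 0 higher and 2 lower of 7, with 0 higher and 1 lower of 7 after the correction, and 0 higher and 0 to 5 lower with 1 library left out, where the lower count was 0 without wild type 2 and 5 without wild type 1. Epicardial and mesothelial markers had 1 higher and 0 lower of 10, with 1 higher and 0 lower of 10 after the correction, and 0 to 5 higher and 0 lower with 1 library left out, where the higher count was 5 without wild type 1. Proliferation markers had 1 higher and 0 lower of 16, with 0 higher and 0 lower of 16 after the correction, and 0 to 2 higher and 0 to 1 lower with 1 library left out. Endocardial markers had 0 higher and 2 lower of 9, with 0 higher and 2 lower of 9 after the correction, and 0 to 1 higher and 1 to 3 lower with 1 library left out. The ventricular cardiomyocyte markers had 2 higher and 4 lower of 14, with 1 higher and 0 lower of 14 after the correction, and 1 to 3 higher and 0 to 5 lower with 1 library left out, where the lower count was 0 without heterozygous 2 or 3 or wild type 2 and 2 without heterozygous 1. The fibroblast list had 0 higher and 2 lower of 18 after the correction, and 0 to 1 higher and 3 to 5 lower with 1 library left out. None of the T, B and NK cell, neutrophil and mast cell, erythroid, skeletal muscle or lung and thymus markers that could be tested was called. The part of these cells in the other results was not tested.

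Beyond the lists, the largest rises by the naming rule included Hipk2. This nuclear stress kinase had 9.99 and 11.99 CPM in wild type 1 and 2 and 96.8, 84.2 and 95.8 CPM in heterozygous 1 to 3 (log2 fold change 3.07, SE 0.14, adjusted p = 6.31e-06), with little spread on either side. Lmbrd2, a membrane protein gene, rose from 1.62 and 1.73 to 16.8, 19 and 17.5 CPM (log2 fold change 3.40, SE 0.20, adjusted p = 1.42e-05). Lnpep, the insulin-regulated aminopeptidase that travels with the glucose transporter GLUT4, rose from 35.8 and 19.3 to 226, 195 and 211 CPM (log2 fold change 2.94, SE 0.24, adjusted p = 8.27e-05). Ppp1r12b, a targeting subunit of the myosin light chain phosphatase, rose from 23.2 and 14.9 to 132, 141 and 162 CPM (log2 fold change 2.93, SE 0.19, adjusted p = 3.76e-05). These 4 genes are in the 5-fit group, as are Zfp536 (3.65), Slc9a7 (3.14) and Samd5 (2.99), which were under 1 CPM in both wild-type hearts. Wild type 2 had no count of Zfp536, whose value was 2.64 against wild type 1 alone. Chrm2, Nt5c1a, Nebl and Pdpr were also among the 15 largest rises, and so were Itgb8, Hist1h1e and Dnajb13, each of which had fewer than 4 CPM in every heart. The call of Hist1h1e was lost without heterozygous 1 or 2 or homozygous 2 or 3 (adjusted p up to 0.0721), and that of Dnajb13 without heterozygous 2 or 3 or wild type 2 (adjusted p up to 0.0897).

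The largest falls also included Susd5, with 3.55 and 6.65 CPM in wild type 1 and 2 and 0.272, 0.188 and 0.205 CPM in heterozygous 1 to 3 (log2 fold change -4.52, SE 0.60, adjusted p = 0.00069). Foxd3, a forkhead factor of the neural crest, had 2.81 and 2.36 CPM in wild type 1 and 2 and 0.363, 0.626 and 0.4104 CPM in heterozygous 1 to 3 (log2 fold change -2.45, SE 0.44, adjusted p = 0.00314), and Ccdc3, a secreted protein gene, fell from 5.63 and 11.1 to 1.32, 1.41 and 0.479 CPM (log2 fold change -2.97, SE 0.45, adjusted p = 0.00132), with -2.37 without wild type 2. All 3 are in the 5-fit group. Cfd, the adipocyte factor adipsin, read 1.08 and 11.1 CPM in wild type 1 and 2 and 0.181, 0 and 0 CPM in heterozygous 1 to 3, and its call was lost without wild type 2 (adjusted p = 0.0973). Col8a2, a collagen of basement membranes, fell from 2.58 and 5.41 to 0.817, 0.751 and 0.752 CPM (log2 fold change -2.37, SE 0.45, adjusted p = 0.00387), and was likewise not called without wild type 2, at -1.71 (adjusted p = 0.0624). Wif1, an inhibitor of Wnt ligands, fell from 17.5 and 4.82 to 0.5898, 0.564 and 2.05 CPM (log2 fold change -3.36, adjusted p = 0.0213). Inmt, a methyltransferase, fell from 7.09 and 12.1 to 1.18, 1.0018 and 1.09 CPM (log2 fold change -3.14, adjusted p = 0.004804). Wif1 lost its call without wild type 1, at -2.16 (adjusted p = 0.113), and without heterozygous 1 or 2 (adjusted p = 0.0585 and 0.0682).

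Homozygous hearts were then tested against heterozygous hearts in the same fit, to see whether a second deleted copy changed the levels. Of 15075 genes 0 (0%) passed in edgeR, with 411 at an unadjusted p under 0.05, and DESeq2 called 3 and limma-voom 1. The genes of smallest p in the edgeR test included Irs2, which averaged 46.3 CPM in heterozygous hearts against 15.99 CPM in homozygous ones (log2 difference -1.54, adjusted p = 0.0922). Wisp1, a matrix-bound CCN family signal, averaged 5.37 and 2.51 CPM (adjusted p = 0.9996), with 1.23 and 0.832 CPM in wild type. Foxd3 averaged 0.467 and 1.502 CPM (adjusted p = 0.9996). Cyr61, another CCN gene and a YAP target, averaged 34.96 and 65.1 CPM (adjusted p = 0.165), with 76.0 and 82.3 CPM in wild type 1 and 2. In these 4 genes the homozygous mean lay between the heterozygous and wild-type means. Some genes described above differed little by this test, with homozygous means of 71.9 CPM for Chrm2, 243 CPM for Nebl and 2471 CPM for Ryr2. Their log2 differences were 0.17, -0.07 and -0.08. Others were further apart, with log2 differences of 0.54 for Comp (homozygous mean 2.64 CPM), 1.67 for Inmt, -1.53 for Dnajb13 and 1.04 for Susd5. None of these 4 passed (adjusted p = 0.9996 for each). Both deletion groups were compared with the same 2 wild-type hearts, so their differences from wild type are not independent. A p that misses the threshold does not show that the deletion genotypes were alike.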

How the data were processed

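Libraries of RNA from mouse hearts at postnatal day 40 were compared by genotype as the labels give it. The authors deposited raw counts per gene symbol, 1 column per library, and all 8 columns were used. The submitters' processing notes name Trimmomatic 0.36, HISAT2, Subread, featureCounts, DESeq2 and the mm10 build. The annotation, strand and treatment of reads with several matches were not given in the sources used here. Reads of overlapping, antisense or near-identical genes therefore cannot be told apart. GENCODE vM21 held 96.9% of the symbols and gave their GC content, positions and lengths. Promoter sequences are from RefSeq (GRCm38.p6).

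In R 4.3.3, genes were filtered by edgeR 4.0.16 (filterByExpr on genotype), scaled by TMM and fitted over all 8 libraries, with a robust quasi-likelihood F test (two-sided, Benjamini-Hochberg over all genes tested). Printed CPM are TMM-scaled, and fold changes are edgeR's unless a ratio of means is named. The gene property correction entered splines of 4 degrees of freedom in log2 transcript length, log2 3' UTR length and GC content as offsets. At 22230090 to 31247412 counts in each of the 5 libraries, counting error was small for all but the lowest genes. A limit for a count of 0 used 3 counts over the group and covers counting error only. The fitting code was tested on simulated counts.

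Alternatives were DESeq2 1.42.0, limma-voom (limma 3.58.1), other scalings and filters, a fit that is not robust, the compared groups alone, a replicate block, a term for sex, each library left out, and the correction alone or joined with some of these. The correction without wild type 1, and the fit of the genes with all 3 properties but no correction, were chosen after seeing the data. The members and gene lists were chosen with earlier results of these data known. Named genes are Actn2, the 15 largest rises and falls among called genes with at least 1 CPM and no overlap between genotypes, the 10 most abundant of these, up to 4 called genes by smallest p of each function list and 3 of each marker list, a panel of heart genes, and the 3 of smallest p in each direction for homozygous against heterozygous. Not all of them are described, and 1 is not reported here. Genes outside this rule were named after their values were seen.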

Additional observations from a re-analysis of the deposited data

How the results depend on the processing

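With 2 wild-type libraries, 1 of which stands apart, and fold changes that move with gene length and GC content, counts of calls depended on the processing more than directions did. In heterozygous against wild type, the gene property correction gave 1978 calls (1295 higher, 683 lower), the correction with a term for sex 2427 (1511 and 916), the correction without wild type 2 752 (551 and 201), and the fit of only the 5 libraries compared 2651 calls with 1082 lower; the cause was not tested. Leaving out 1 library at a time gave 2374 to 5641 calls, 1645 to 3004 of them higher and 729 to 2637 lower. Lower calls were 729 without wild type 2, 1113 without heterozygous 2 and 1170 without heterozygous 3. The other alternatives stayed within 1.5 times the reported count, between 3376 for the replicate block and 4943 for DESeq2. For homozygous against heterozygous, where edgeR called 0, DESeq2 called 3 (1 higher, 2 lower), the fit with no filter 2 (1 and 1), and limma-voom, the correction, and the correction without either wild-type library 1 each, which was lower. There, leaving out 1 library gave 0 to 1 calls, all lower.

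The labels tie no litter, batch or day to a replicate number, and not every same-numbered pair deviated together: deviations from group means correlated at 0.000946 between heterozygous 1 and wild type 1, at -0.00575 between heterozygous 2 and wild type 2, and at 0.177, 0.138 and -0.0228 between heterozygous and homozygous libraries 1, 2 and 3. The numbers were therefore not taken to pair the samples. With the number as a replicate block, 3376 genes were called (1977 higher, 1399 lower), and 0 for homozygous against heterozygous.

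Of 114 genes followed, 104 were called, and 61 of these kept their call and direction under all 24 alternatives in which they could be tested. Directions turned, as log2 values, for Ttn (-0.38 corrected, -0.38 corrected with sex, -0.57 and -0.20 corrected without wild type 1 and 2), Myl3 (0.010, 0.027 with sex, and 0.0074 without wild type 2), Nppa (0.11, 0.082 with sex, and 0.34 without wild type 2) and Gja1 (-0.014, -0.015 with sex, and -0.24 without wild type 2) after the correction. The correction without wild type 2 also turned Myl2 (0.029), Tnni3 (0.079), Nppb (0.43) and Pdk4 (-0.032), and the correction without wild type 1 Trdn (-0.11) and Ppargc1a (-0.046). In the fit of only the 5 libraries compared, Actn2, Tnni3, Myl2, Myl3, Tpm1, Hist1h1e, Dnajb13 and Hcn4 lost their calls. With no correction, Nppb turned without wild type 2 (0.41, against -1.07 without wild type 1), and Cacna1c without heterozygous 1 (0.045) or wild type 2 (0.032). The cause was not tested. Genes below about 1 CPM rest on few counts.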

Other observations

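Protein quality control and translation genes changed in both directions. Among heat shock and BAG3 chaperones 8 of 33 measured members were called higher and 7 lower, with a median log2 fold change of -0.04. There were 5 higher and 0 lower of 33 after the correction, and 6 to 9 higher and 2 to 8 lower with 1 library left out, where the lower count was 2 without wild type 2, 3 without heterozygous 2 or 3 and 4 without any 1 homozygous library. Hsp90aa1, the inducible HSP90, had 182 and 175 CPM in wild type 1 and 2 and 354, 384 and 372 CPM in heterozygous 1 to 3 (log2 fold change 1.05, SE 0.12, adjusted p = 0.000451), and homozygous hearts averaged 269 CPM. Among muscle ubiquitin ligases 11 of 24 measured members were called higher and 3 lower, with a median log2 fold change of 0.40, with 5 higher and 2 lower of 24 (median 0.33) after the correction and 8 to 13 higher and 1 to 4 lower with 1 library left out, where the lower count was 1 without wild type 2. Asb18, an ankyrin-repeat ligase subunit, had 5.55 and 1.77 CPM in wild type 1 and 2 and 15.7, 15.8 and 16.4 CPM in heterozygous 1 to 3 (log2 fold change 2.13, SE 0.38, adjusted p = 0.00309), with 3.17 without wild type 1. In autophagy 7 of 36 measured members were called higher and 4 lower, with a median log2 fold change of 0.02. There were 5 higher and 0 lower of 36 after the correction, and 4 to 11 higher and 2 to 8 lower with 1 library left out, where the higher count was 4 without wild type 2 and 11 without wild type 1 and the lower count was 2 without heterozygous 3 or wild type 2 and 8 without wild type 1. Lamp2, the lysosomal membrane protein, rose from 153 and 126 to 324, 333 and 301 CPM (log2 fold change 1.19, SE 0.15, adjusted p = 0.000483). Eif4ebp2, a repressor of cap-dependent translation, had 19.2 and 8.32 CPM in wild type 1 and 2 and 45.3, 49.4 and 55.5 CPM in heterozygous 1 to 3 (log2 fold change 1.86, SE 0.29, adjusted p = 0.00186), with 2.59 without wild type 1. Mitochondrial ribosomal proteins had 5 higher and 25 lower of 78, with 6 higher and 11 lower of 78 after the correction, and 3 to 6 higher and 5 to 38 lower with 1 library left out, where the higher count was 3 without heterozygous 1 or homozygous 3 or wild type 2 and the lower count was 5 without wild type 2, 11 without heterozygous 2, 14 without heterozygous 3 and 38 without wild type 1. Translation factors had 10 higher and 14 lower of 41, with 3 higher and 6 lower of 41 after the correction, and 9 to 11 higher and 5 to 16 lower with 1 library left out, where the lower count was 5 without wild type 2, 8 without heterozygous 2 and 9 without heterozygous 3. Proteasome subunits had 5 higher and 12 lower of 38, with 4 higher and 4 lower of 38 after the correction, and 3 to 5 higher and 8 to 17 lower with 1 library left out, where the higher count was 3 without heterozygous 2 or wild type 2. The integrated stress response had 1 higher and 5 lower of 23, with 1 higher and 0 lower of 23 after the correction, and 1 to 3 higher and 1 to 6 lower with 1 library left out, where the higher count was 3 without wild type 1 and the lower count was 1 without wild type 2 and 3 without heterozygous 2. Mitochondrial dynamics and cristae genes had 10 higher and 7 lower of 36, with 8 higher and 2 lower of 34 after the correction, and 8 to 10 higher and 3 to 11 lower with 1 library left out, where the lower count was 3 without wild type 2, 4 without heterozygous 2 and 11 without wild type 1. Muscle splicing regulators had 6 higher and 4 lower of 28, with 1 higher and 6 lower of 28 after the correction, and 5 to 7 higher and 0 to 5 lower with 1 library left out, where the lower count was 0 without wild type 2. Hsp90aa1, Asb18, Lamp2 and Eif4ebp2 were called in the same direction in the 5 fits described in the report.

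Immediate early genes, which respond within minutes to handling or load, gave 0 higher and 6 lower of 29, with 0 higher and 2 lower of 29 after the correction, and 0 higher and 2 to 9 lower with 1 library left out, where the lower count was 2 without wild type 2. Dusp1, a MAP kinase phosphatase, had 172 and 162 CPM in wild type 1 and 2 and 98.1, 98.2 and 85.3 CPM in heterozygous 1 to 3 (log2 fold change -0.83, SE 0.14, adjusted p = 0.00222), with -0.44 (adjusted p = 0.0631) after the correction. Of circadian clock genes 2 of 22 measured members were called higher and 0 lower, with a median log2 fold change of -0.05, and those called were Rora (1.44) and Clock (1.14). Clock was 0.30 (adjusted p = 0.144) after the correction. There were 1 higher and 1 lower of 22 after the correction, and 2 to 4 higher and 0 to 1 lower with 1 library left out, where the higher count was 4 without wild type 1. Of 26 collagens 0 rose and 4 fell, with 0 higher and 2 lower of 25 after the correction, and 0 to 4 higher and 1 to 5 lower with 1 library left out, where the higher count was 4 without wild type 1 and the lower count was 1 without wild type 2 and 2 without heterozygous 2 or 3. Integrins and laminins had 3 higher and 5 lower of 27, with 1 higher and 1 lower of 27 after the correction, and 3 to 6 higher and 0 to 3 lower with 1 library left out, where the higher count was 6 without wild type 1 and the lower count was 0 without heterozygous 3, 1 without heterozygous 2 or homozygous 2 or wild type 1, 2 without heterozygous 1 or homozygous 1 and 3 without homozygous 3 or wild type 2. CCN and YAP targets had 3 higher and 2 lower of 20, with 3 higher and 0 lower of 15 after the correction, and 3 to 6 higher and 1 to 4 lower with 1 library left out, where the higher count was 5 without wild type 1 and 6 without heterozygous 1 and the lower count was 4 without heterozygous 1. Antioxidant and metallothionein genes had 2 higher and 8 lower of 30, with 1 higher and 3 lower of 30 after the correction, and 1 to 4 higher and 5 to 10 lower with 1 library left out, where the higher count was 4 without wild type 1 and the lower count was 5 without wild type 2. Replication-dependent histones had 2 higher and 0 lower of 16, with 2 higher and 0 lower of 16 after the correction, and 0 to 3 higher and 0 to 1 lower with 1 library left out, where the higher count was 0 without heterozygous 2 or homozygous 2 or 3. Nuclear and imprinted long noncoding RNAs had 1 higher and 4 lower of 17, with 0 higher and 0 lower of 1 after the correction, and 0 to 2 higher and 1 to 5 lower with 1 library left out, where the lower count was 1 without heterozygous 2 or 3 or wild type 2. Hcn4, the pacemaker channel, had 5.01 and 1.46 CPM in wild type 1 and 2 and 7.94, 6.79 and 12.96 CPM in heterozygous 1 to 3 (log2 fold change 1.52, SE 0.46, adjusted p = 0.0349), and lost its call without wild type 2 (adjusted p = 0.112), heterozygous 3 (adjusted p = 0.098) or any 1 homozygous library (adjusted p = 0.0524, 0.0503 and 0.0556).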
